A study of Mus musculus with 28 samples.

Results

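The promoters described here belong to DNA repair genes of mouse embryonic stem cells. They were chosen by gene symbol. Protein-coding genes of the mm10 build whose symbols start with Fanc, Xrcc, Ercc, Brca, Msh or Mlh, or with Rad and a digit, were taken, which gave 55 genes of 21887. A gene's promoter was the set of deposited regions with a centre within 1 kb of its transcription start site. Of the 55 genes, 54 had such a region, with 67 regions of 127646 in all, and no region belonged to more than 1 of them. Rad21l, which encodes a cohesin subunit of meiotic cells, had none. In the whole annotation 14415 protein-coding genes had a promoter region.

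Each sample came from mouse embryonic stem cells (mESCs) of the genotype FOXD3-iKO, in which the transcription factor FOXD3 can be depleted by 4-hydroxytamoxifen (4HT), grown in L2i, with 24 h given as the treatment time. H3K27ac, an acetylated lysine of histone H3 at active promoters and enhancers, was profiled in asynchronous cells treated with EtOH, the solvent (2 samples), or 4HT (2 samples). H2BK120ac, an acetylated lysine of histone H2B found at active promoters, was profiled in 4 groups of 3 samples that the labels call ED, ET, TD and TT without saying what the letters stand for or which treatment each had. Which of these groups were given 4HT is therefore not stated, and the line, the promoter that drives the recombinase and the number of clones are not stated in the labels. A further 12 samples, sorted by phase of the cell cycle, are not analysed here.

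Both marks were measured by CUT&Tag, in which an antibody brings a transposase to the chromatin that carries the mark, so that sequenced fragments mark its place. The deposited value of a region is coverage in CPM, that is scaled to the depth of the library, with the samples of a group merged into 1 column. There is thus no spread between replicates, no test and no p-value. A promoter was called higher or lower in a comparison at a 2-fold difference on the scale log2(CPM + 1), which understates the difference of low promoters. The commonest value of a column, taken as that of 1 fragment, was 0.445 CPM in ED and ET, 0.412 and 0.415 CPM in TD and TT, and 0.165 and 0.207 CPM in EtOH and 4HT. Most promoters rest on few fragments: the median of the 54 members lay between 0.492 CPM (ET) and 0.790 CPM (4HT), and no coverage at all was found for 7 members in each of ED and ET, 2 in TD, 4 in TT, and 1 in each of EtOH and 4HT. Intervals given with ratios are exact 95% Clopper-Pearson intervals on the pile-up of fragments, rounded to whole numbers, and cover counting error only. The pile-up is the mean height of coverage in units of 1 fragment, not the number of fragments in a region. Numbers of fragments given here are such heights. The intervals are therefore a rough guide, and that of a promoter need not follow from those of its regions. The stem cell identity in the labels was set beside 7 marker genes, all with a promoter region. Their summed coverage was 5.94 to 20.7 CPM over the 6 groups. Not every marker was high: Esrrb had 0 CPM in ET and 0.481 CPM at most (ED), and Pou5f1 had 0.331 CPM in ED and 0.152 in ET. The sums of the 2 marker lists run over unlike numbers of genes and were not tested. Of 6 fibroblast feeder markers 3 had a region, and their sums were 0 to 0.889 CPM, with at least 1 of the 3 at 0 in every group but EtOH. At the promoter of Foxd3 itself H3K27ac was 1.02 CPM in EtOH and 2.81 CPM in 4HT, which does not check the deletion, since the deleted stretch is not named in the labels.

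Cells repair DNA by several routes that share few parts. Nucleotide excision repair cuts out bulky lesions, mismatch repair corrects replication errors, the Fanconi pathway unhooks crosslinks between strands, and breaks are mended by homologous recombination or end joining. Mouse embryonic stem cells divide fast, spend much of their cycle in replication and are known for a high capacity for mismatch repair and recombination, and most repair genes have promoters rich in CpG that are active in dividing cells of many kinds.

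The promoters on which the H2BK120ac results turn are those of Rad23b, Rad1, Msh6 and Fanci, and the 250 bases before the start site of each are shown as the sequence inside or beside the regions measured. They come from RefSeq on GRCm38.p6, read from 5′ to 3′ on the strand of the gene. Capitals mark matches, on either strand, to the motifs searched. Fanci was added to the set after its values were seen, and Rad21 is named only.
Rad23b (chr4:55349792-55350041, plus strand): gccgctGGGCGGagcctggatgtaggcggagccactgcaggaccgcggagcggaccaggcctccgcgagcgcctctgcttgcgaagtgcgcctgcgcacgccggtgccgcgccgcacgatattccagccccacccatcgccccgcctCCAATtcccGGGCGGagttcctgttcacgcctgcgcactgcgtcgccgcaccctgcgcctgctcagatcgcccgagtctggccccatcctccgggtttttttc
Rad1 (chr15:10485768-10486017, plus strand): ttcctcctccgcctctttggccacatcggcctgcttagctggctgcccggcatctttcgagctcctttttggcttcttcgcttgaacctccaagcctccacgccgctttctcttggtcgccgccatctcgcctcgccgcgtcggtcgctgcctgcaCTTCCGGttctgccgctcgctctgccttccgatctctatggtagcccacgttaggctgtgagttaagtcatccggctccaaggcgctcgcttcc
Msh6 (chr17:87974800-87975049, plus strand): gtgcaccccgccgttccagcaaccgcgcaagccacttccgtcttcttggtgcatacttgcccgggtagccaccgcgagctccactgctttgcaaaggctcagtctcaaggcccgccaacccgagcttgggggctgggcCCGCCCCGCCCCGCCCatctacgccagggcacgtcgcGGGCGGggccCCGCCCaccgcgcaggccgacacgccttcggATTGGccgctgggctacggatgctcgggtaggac
Fanci (chr7:79392088-79392337, plus strand): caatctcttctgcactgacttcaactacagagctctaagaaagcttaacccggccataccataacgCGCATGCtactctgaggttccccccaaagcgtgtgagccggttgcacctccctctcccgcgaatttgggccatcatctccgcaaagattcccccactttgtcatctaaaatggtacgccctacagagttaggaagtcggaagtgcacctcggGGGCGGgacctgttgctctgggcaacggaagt

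The letters searched, on both strands, were GGGCGG (GC box), CCAAT (the CCAAT box), CCGGAAG (ETS factors), GCATGCG (NRF1), TGACG (CREB and ATF factors) and the consensus decamer of p53. The core of E2F sites was searched as TTCCCGC with its variants, which are TTCGCGC besides the forms TTGCCGC as well as TTGGCGC. Msh6 held 5 GC boxes, 3 of them overlapping, and a CCAAT box 34 to 30 bases before the start. Rad23b held 2 GC boxes and a CCAAT box 103 to 99 bases before the start. Fanci held 1 GC box and 1 NRF1 match, and Rad1 held 1 ETS match and no GC box. Of 11653 promoter sequences of the same length, 59.5% held a GC box, 36.5% a CCAAT box, 12.8% the ETS letters, 5.27% the NRF1 letters, 26.3% TGACG, 14.1% an E2F core and 6.02% the p53 decamer. No match to the last 3 of these was found in the 4 sequences. The matches are a description of letters. A count over all members would be void, since 40 of the 54 (74.1%) have a sequence in the table used.

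The 54 promoters were like promoters at large in the number and width of their regions and had more coverage. Of the 54, 43 had a single region and 11 had more, with at most 3. The median width of a region was 663 bp, against 627 bp over all promoters, and in 27.8% of members and 27.7% of all promoters the nearest region was 1 kb or wider. The member median ranked between the percentiles 62.2 (ET) and 71.9 (ED) of all promoters. In EtOH the medians were 0.693 CPM for members and 0.389 CPM over all promoters, and 44.4% and 23.1% reached 5 fragments. In TD 31.5% of members and 15.7% of all promoters reached 3 fragments. In H3K27ac the 4 highest members by the mean of both groups were Msh6 (3.40 CPM), Rad23b (3.06 CPM), Rad21 (2.75 CPM) and Fanci (2.71 CPM). In H2BK120ac the 5 highest by the mean of 4 groups were Rad23b (3.51 CPM), Rad1 (2.65 CPM), Rad21 (2.27 CPM), Msh6 (2.21 CPM) and Fanci (2.06 CPM), so that the 4 genes of the first list stood in both.

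**Figure D1:**
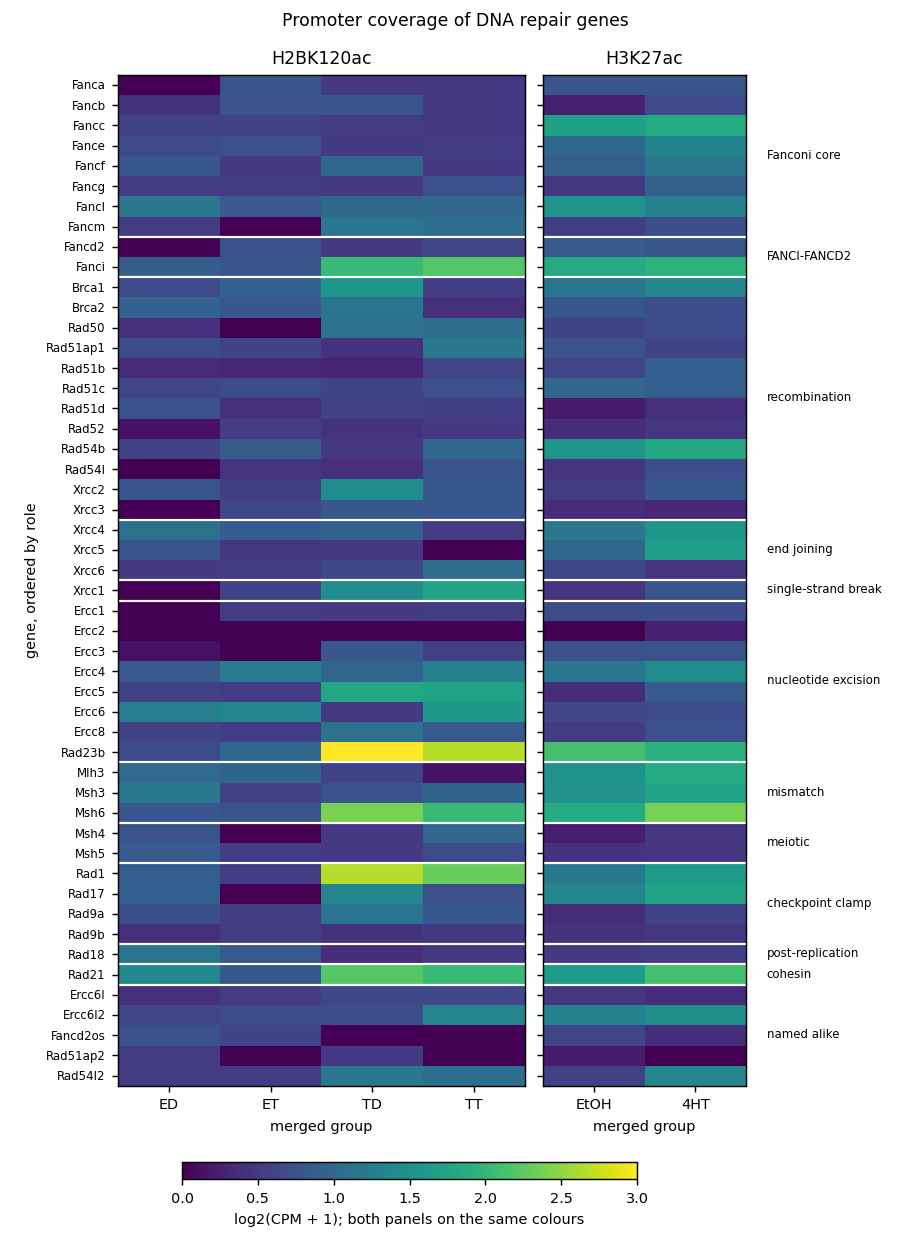
Promoter coverage of 50 of the 54 DNA repair genes (rows, ordered by role) in the merged groups of H2BK120ac (left) and H3K27ac (right), as log2(CPM + 1) on one colour scale. In H2BK120ac the brightest cells are those of Rad23b and Rad1 in TD and TT and of Msh6 in TD, while in H3K27ac most rows look much alike in EtOH and 4HT.

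The lowest members were of other kinds. In H3K27ac they were Rad51ap2 (0.0823 CPM), Ercc2 (0.104 CPM), Rad51d (0.248 CPM), Msh4 (0.282 CPM) and Xrcc3 (0.285 CPM). Msh4 acts in meiotic crossover formation, and Rad51d and Xrcc3 encode paralogous proteins of recombination. Ercc2 encodes a helicase of the general transcription factor TFIIH, which all cells use, and had no H2BK120ac coverage in any group and H3K27ac coverage of 1 fragment (0.207 CPM) in 4HT alone, so a low promoter value here does not show a silent gene. In H2BK120ac the lowest were Ercc2 (0 CPM), Rad51ap2 (0.214 CPM), Fancd2os (0.300 CPM), Rad51b (0.327 CPM) and Rad52 (0.331 CPM). Across the 54 members, which share a library within each group, the order of the promoters was closer between EtOH and 4HT (Spearman's rho 0.881) than between TD and TT (0.574) or ED and ET (0.408), and the columns differ in depth.

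In TD against ED, 6 of the 54 members were called higher, which are Rad23b, Rad1, Msh6, Xrcc1, Ercc5 and Fanci, and 0 were called lower. That is 11.1% of the members, beside 6.98% of all promoters called higher and 0.382% called lower. The members had more coverage, with 31.5% at 3 fragments or more in TD, against 15.7% of all promoters. The shares and medians set side by side here are not matched for coverage, and its part in them was not tested. TD and TT also stand apart as columns, with no coverage in 48.2% and 47.5% of all 127646 regions, against 38.7% in each of ED and ET, and the part of this in the calls was not tested. The member median of the log2 difference was 0.23, against 0.05 over all promoters. In TT against ET, which shares no column with the first comparison, 9 members were called higher and 0 lower. These are the same 6 with Rad21, Rad50 and Fancm, or 16.7% of the members, beside 6.1% of all promoters called higher and 0.361% called lower, and the medians were 0.19 and 0.07. The 6 genes in both lists make up 100% of the first and 66.7% of the second, and over all promoters the 509 shared genes made up 50.6% and 57.9%. After quantile normalization of the columns the split between directions turned: TD against ED then had 2 members higher and 3 lower, beside 2.68% and 2.69% of all promoters, and TT against ET 1 higher and 1 lower, beside 2.35% and 2.58%. Among the members named above, the calls that remained there were Rad23b and Xrcc1 in the first comparison and Rad1 in the second.

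**Figure D2:**
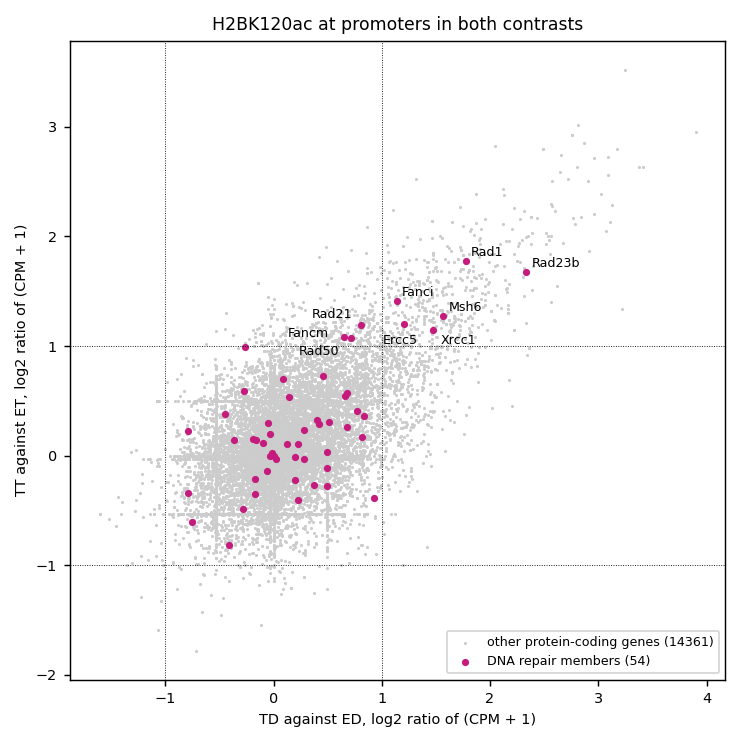
Difference in promoter H2BK120ac between TD and ED (horizontal) and between TT and ET (vertical), each as the log2 ratio of (CPM + 1), for the 54 DNA repair genes (magenta) and the 14361 other protein-coding genes with a promoter region (grey); dotted lines mark 2-fold. Rad23b and Rad1 lie farthest out among the repair genes, at 2.34 and 1.67 and at 1.77 and 1.77, and grey points lie farther still.

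Few members were covered well enough for the size of a ratio to be read. With a mean of 5 fragments or more over both groups, 4 members remained in TD against ED and 3 of them were called higher (Rad23b, Rad1 and Msh6), where 84.5% of all promoters so covered were called higher. In TT against ET 3 members remained and 3 were called higher (Rad23b, Rad1 and Fanci), beside 79.7% of all such promoters. No member so covered was called lower, beside 0.267% of all such promoters in TD against ED, while it was 0.0% for TT against ET. The filter favours promoters that are high in TD or TT, so these counts lend no support. Rad21, with 8.80 fragments in TD and 3.70 in ED, was the covered member not called. Over the 5 comparisons made, the interval of the promoter ratio left out 1 for Rad23b and Rad1, in both of these comparisons, and for no other member.

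Among nucleotide excision repair genes the outstanding promoter was that of Rad23b, whose product holds the damage sensor XPC and carries marked proteins to the proteasome. Rad23b had an H2BK120ac level of 0.595 CPM in ED and 1.01 in ET, against 7.05 in TD and 5.40 in TT, from 1 region at chr4:55349437-55350837 (mm10, as are all region coordinates here), centred 95 bp from the start site and overlapping the gene. The levels in TD and TT were both far above those in ED and ET, and TD held the highest value of any member in this mark. The TD value was 11.9 times the ED value (interval 2.46 to 657), and the TT value was 5.36 times the ET value (1.37 to 55.2). In H3K27ac the same region had 3.35 CPM in EtOH and 2.77 in 4HT, a ratio of 0.827 in the other direction whose interval (0.374 to 1.73) holds 1.

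Of the 9 nucleotide excision genes, 2 were called higher in TD against ED, as were 2 in TT against ET, beside 6.98% and 6.1% of all promoters. Besides Rad23b this was Ercc5, which encodes the nuclease XPG that cuts on the 3′ side of a lesion. Ercc5 had 0.508 CPM in ED and 0.445 in ET, against 2.48 in TD and 2.33 in TT. Its region is chr1:44147491-44148395, which overlaps the gene. The low values are those of about 1 fragment, and the ratios of 4.89 (interval 0.673 to 255) and 5.22 (0.678 to 257) have intervals that hold 1. The partner nuclease on the 5′ side, Ercc4, had 0.805, 1.34, 0.963 and 1.52 CPM in ED, ET, TD and TT, with no call, and its cofactor Ercc1 had 0, 0.445, 0.412 and 0.475 CPM. Ercc6, which encodes the transcription-coupled repair factor CSB, went another way: it had 1.44 CPM in ED and 1.59 in ET, against 0.412 in TD and 2.04 in TT. TD was thus the low group for Ercc6, and TT against TD was called higher, at 1.11 on the log2 scale, with 4.91 fragments over 1 and an interval of the ratio from 0.564 to 238.

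Rad1 encodes a subunit of the checkpoint clamp that is loaded at damaged DNA and brings in the kinase ATR. Its promoter had 0.861 CPM in ED and 0.445 in ET, against 5.36 in TD and 3.94 in TT, with TD and TT above ED and ET. The ratio was 6.23 for TD against ED (interval 1.36 to 54.9) and 8.84 for TT against ET (1.16 to 367). H3K27ac there was 1.33 CPM in EtOH and 2.11 in 4HT, a ratio of 1.59 (0.560 to 4.59). The region lies at chr15:10485682-10486490, and the start site of Brix1, a ribosome biogenesis gene on the opposite strand, lies 81 bp from that of Rad1. The region is counted for both genes, so the H2BK120ac there cannot be told apart between them. Rad9a, another clamp subunit, had 0.653, 0.445, 1.22 and 0.761 CPM in ED, ET, TD and TT, and Rad17, which loads the clamp, had 0.908, 0, 1.61 and 0.659 CPM. Neither was called in TD against ED or TT against ET.

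In mismatch repair the called gene was Msh6, whose product binds base mismatches. The Msh6 promoter, as the mean of 3 regions between chr17:87973850 and 87975724, had 0.776 CPM in ED and 0.699 in ET, against 4.27 in TD and 3.11 in TT. The ratio was 5.50 for TD against ED (interval 0.986 to 43.4) and 4.44 for TT against ET (0.621 to 32.2). Its regions had unlike ratios. The region centred 998 bp upstream of the start had 1.09 CPM in ED and 0.966 in TD, a ratio of 0.887 (0.0670 to 12.8). The region centred 28 bp upstream had 0.727 and 5.25 CPM, a ratio of 7.22 (1.36 to 54.9), and the region centred 538 bp downstream had 0.445 and 6.51 CPM, a ratio of 14.6 (2.30 to 621). In the upstream region TT had 1.51 CPM and ET 0.927, a ratio of 1.63 (0.267 to 20.6). The intervals of the regions overlap, and the difference between regions was not tested.

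H3K27ac at Msh6 was laid out in another order. The upstream region, which does not overlap the gene, had 2.67 CPM in EtOH and 5.32 in 4HT, a ratio of 1.99 (interval 1.06 to 4.08). No other region of the 67 had an H3K27ac interval that left out 1, so this one is an extreme of many and does not show a gain. The region at the start had 3.31 and 4.55 CPM, and the downstream region had 0.481 and 1.61 CPM. In EtOH and 4HT the downstream region was the lowest of the 3, while in TD and TT it was the highest. The 2 marks come from separate tables, and their levels are set side by side here, not tested against each other. Among the other mismatch genes, Msh3, whose product binds small loops, had 1.31, 0.505, 0.686 and 0.955 CPM in ED, ET, TD and TT. Mlh3, which encodes a MutL protein, had 1.03, 0.949, 0.524 and 0.109 CPM in the same order. Neither was called.

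**Figure D3:**
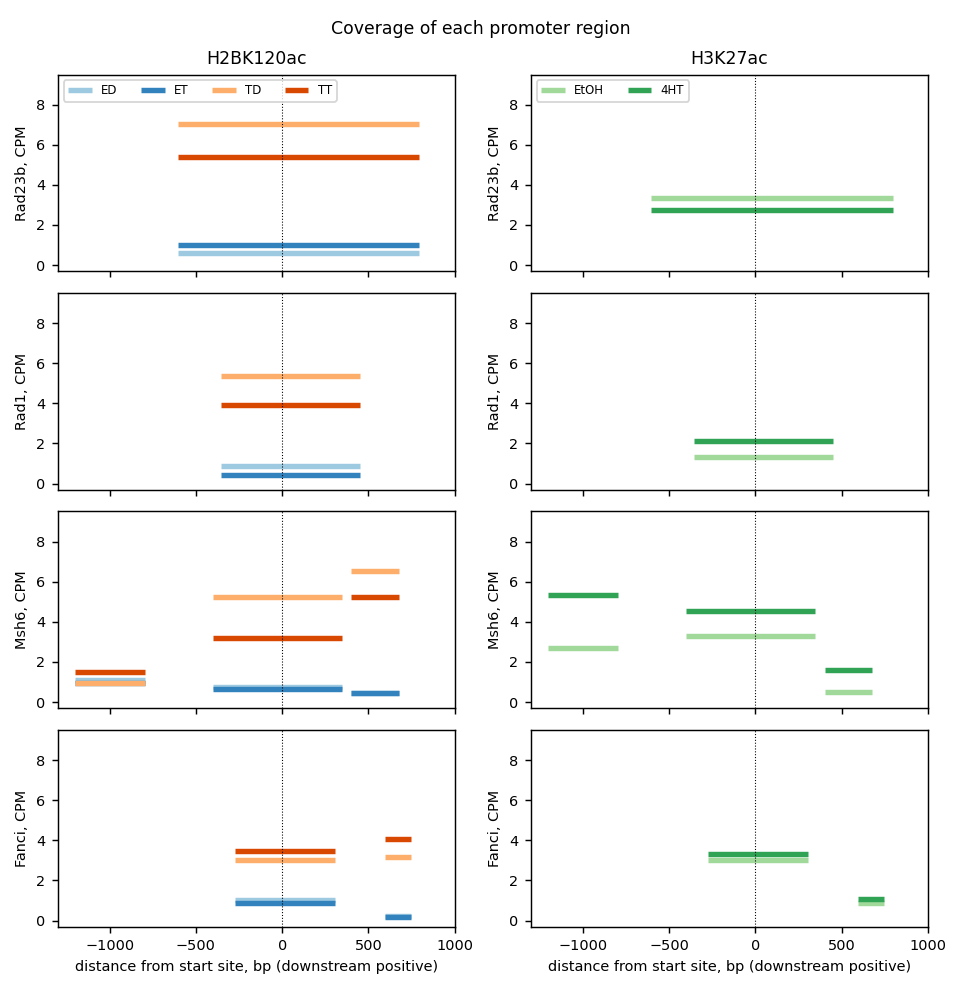
Coverage in CPM of each promoter region of Rad23b, Rad1, Msh6 and Fanci against distance from the start site in bp, with H2BK120ac on the left and H3K27ac on the right; each bar spans the width of a region, its height is the value of a group, and ED lies under ET where they are equal. For Msh6 the TD and TT bars stand above ED and ET at and downstream of the start, and in the upstream region all 4 lie between 0.927 and 1.51 CPM.

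Fanci and Fancd2 encode the pair of proteins that clamps onto DNA at a crosslink once ubiquitin is attached. Fanci had an H2BK120ac level of 0.844 CPM in ED and 0.732 in ET, against 3.06 in TD and 3.60 in TT, with TD and TT both above ED and ET. The ratio was 3.62 for TD against ED (interval 0.616 to 31.9) and 4.92 for TT against ET (0.867 to 39.9). Of its regions, the one at chr7:79392063-79392642, centred 14 bp from the start, had 1.01, 0.884, 3.03 and 3.48 CPM in ED, ET, TD and TT, and the one at chr7:79392933-79393085, centred 671 bp downstream, had 0.222, 0.156, 3.16 and 4.08 CPM. Fancd2 had 0 CPM in ED and 0.664 in ET, against 0.412 in TD and 0.542 in TT. Its partner's values in TD and TT were thus not seen at Fancd2, where each H2BK120ac group had a pile-up below 2 fragments. The start of Emc3 lies 2 bp from that of Fancd2 on the opposite strand.

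The 8 genes of the Fanconi core group, whose products form or anchor the ligase that adds this ubiquitin, had 0 members called higher in TD against ED, and 1 was called in TT against ET, beside the same shares of 6.98% and 6.1% of all promoters. That gene was Fancm, a DNA translocase, with 0.445 CPM in ED and 0 in ET, against 1.27 in TD and 1.11 in TT, which is 3.08 fragments at most. The other 7 core genes stayed between 0 and 1.28 CPM in every H2BK120ac group. Several of them had clear H3K27ac: Fancc had 2.29 CPM in EtOH and 2.56 in 4HT, and Fancl, the ubiquitin ligase itself, had 1.94 and 1.50 CPM.

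**Figure D4:**
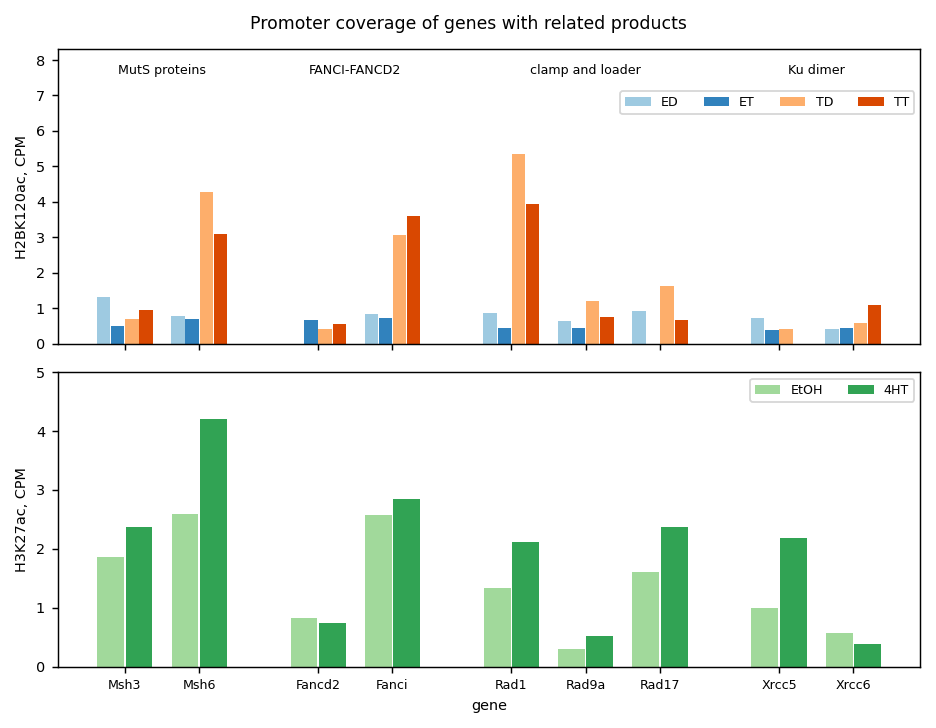
Promoter coverage in CPM of genes with related products, with bars for the merged groups of H2BK120ac (top) and of H3K27ac (bottom). Msh6, Fanci and Rad1 stand out in TD and TT beside related genes such as Msh3 (0.686 CPM in TD), Fancd2 (0.412 CPM) and Rad9a (1.22 CPM).

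Of 13 homologous recombination genes, 0 were called higher in TD against ED, and 1 was in TT against ET, beside 6.98% and 6.1% of all promoters. That gene was Rad50, a subunit of the complex that senses and trims broken ends, with 0.334 CPM in ED and 0 in ET, against 1.19 in TD and 1.10 in TT. Brca1, which directs broken ends towards recombination, had 0.576 CPM in ED and 0.928 in ET, against 1.99 in TD and 0.473 in TT. TD was the high group for Brca1, and in TT against TD it was called lower, at -1.02, with a ratio of 0.238 (interval 0.00426 to 1.80). The Brca1 region is shared with the opposite gene Nbr1, an autophagy receptor gene whose start lies 152 bp away. Brca2, another recombination gene, had 0.922, 0.755, 1.24 and 0.329 CPM in ED, ET, TD and TT and was not called.

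The single-strand break gene was called in H2BK120ac and the end joining genes were not, which are too few genes to compare the pathways. Xrcc1, which encodes the scaffold of single-strand break repair, had 0 CPM in ED and 0.525 in ET, against 1.78 in TD and 2.38 in TT. Taking 3 fragments as the limit for ED, TD was at least 1.33-fold higher. This allows for counting error in ED alone, and TD held 4.33 fragments. TT against ET gave a ratio of 4.53 (interval 0.678 to 257). The Xrcc1 region, chr7:24546775-24547202, also counts for Pinlyp, whose start on the opposite strand lies 694 bp from that of Xrcc1. Of the 3 end joining genes none was called in any of the 5 comparisons. Over all promoters 6.98% were called higher for TD over ED and 6.1% for TT over ET. Every other share of all promoters was 0.382% or less. At these shares a count of 0 among 3 genes does not set them apart from promoters at large. Xrcc5 and Xrcc6, which encode the Ku ring that binds broken ends, had 0.732, 0.397, 0.421 and 0 CPM and 0.422, 0.452, 0.572 and 1.10 CPM in ED, ET, TD and TT.

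Rad21, the cohesin subunit that closes the ring around sister chromatids, had 1.64 CPM in ED and 0.777 in ET, against 3.62 in TD and 3.06 in TT. It was called higher in TT against ET, with a ratio of 3.93 (interval 0.621 to 32.2), while in TD against ED the ratio was 2.20 (0.581 to 9.25) and the log2 difference of 0.81 stayed below the threshold. ED held the highest value of any member in that group at this gene. Its main region is chr15:51990986-51992113. Its start site was taken from a deposited window, not from RefSeq. Rad18, the ubiquitin ligase that marks PCNA at stalled forks, was among the members lower in TD, with 1.27 CPM in ED and 0.793 in ET, against 0.309 in TD and 0.418 in TT, and log2 differences of -0.79 and -0.34. Of the 5 genes that match by name but are not, or not surely, repair genes (Ercc6l, Ercc6l2, Fancd2os, Rad51ap2 and Rad54l2), none was called in a comparison. With 6.98% (TD over ED) and 6.1% (TT over ET) of all promoters called higher, 0 of 5 does not set these genes apart.

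The other H2BK120ac comparisons had few calls. In ET against ED, 0 members were called higher and 0 lower, beside 0.18% and 0.187% of all promoters, and the member median was -0.06. In TT against TD, 1 member was called higher (Ercc6) and 1 lower (Brca1), beside 0.215% and 0.326% of all promoters, with a median of -0.02. Neither is called with a mean of 5 fragments or more, where 8 members remained and 0.225% of all promoters were higher and 0.901% lower. After quantile normalization 4 members were lower in ET against ED, beside 1.86% of all promoters. In TT against TD 0 were then called, beside 0.0208% of all promoters higher and 0.0555% lower. Each of these comparisons shares columns with those above, so a low value in one column enters more than 1 of them.

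H3K27ac differed by less than 2-fold between 4HT and EtOH at these promoters on the scale of the calls, with more members higher in 4HT than lower. In 4HT against EtOH, 0 of the 54 members were called higher and 0 lower, beside 0.0347% and 0.0% of all promoters, or 0.153% and 0.0% of those with a mean of 5 fragments or more. At these shares a count of 0 does not set the members apart. The log2 difference was above 0 in 42 members and below 0 in 12, with a median of 0.21. Over all 14415 promoters it was above 0 in 8901, with a median of 0.05. The 2 sets are not matched for coverage, and the difference between them was not tested. The largest differences belonged to Rad54l2, a helicase gene named for its likeness to Rad54, with 0.505 CPM in EtOH and 1.60 in 4HT (0.79 on the log2 scale, ratio 3.17, interval 0.806 to 19.7), and to Xrcc5, with 6.08 fragments in EtOH and 10.5 in 4HT (0.67, ratio 2.18, 0.783 to 7.61). Msh6 came next with 2.59 and 4.21 CPM (0.54, ratio 1.63, 0.775 to 3.25). The interval of the whole promoter held 1 for each member with a ratio. The 5 mismatch repair genes were all above 0, with a median of 0.31, and the lowest difference was that of Fancl at -0.24.

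**Figure D5:**
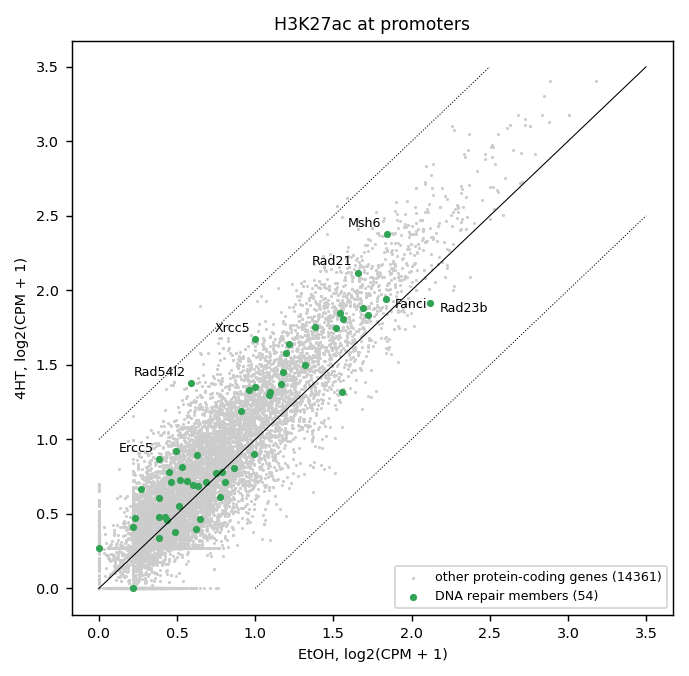
Promoter H3K27ac in 4HT against EtOH, both as log2(CPM + 1), for the 54 DNA repair genes (green) and the 14361 other protein-coding genes with a region (grey); the solid line marks equal values and dotted lines mark 2-fold. More green points lie above the solid line than below it (42 and 12), and none crosses a dotted line.

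The levels of the marks did not always go together. Ercc5 and Xrcc1, called higher in TD against ED, had H3K27ac below the member medians in EtOH, at 0.308 and 0.363 CPM, and values near them in 4HT, at 0.822 and 0.721 CPM. Fancc, Rad54b and Mlh3 were among the members with more H3K27ac, at 2.29, 1.95 and 1.91 CPM in EtOH, and had 0.449, 0.412 and 0.524 CPM of H2BK120ac in TD and 0.392, 0.984 and 0.109 CPM in TT. Across the 54 members Spearman's rho between EtOH and TD was 0.436, and over all promoters it was 0.636. Between EtOH and TT it was 0.273 in members and 0.636 over all promoters. Between EtOH and ED or ET it was 0.515 and 0.545 in members and 0.452 and 0.486 over all promoters. Between 4HT and TD it was 0.547 in members and 0.648 over all promoters. These values share the region, its width and its base composition, and the columns differ in depth.

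A layout that the rule did not use was more frequent among the members than over all promoters, with no test of the difference. Of 53 members whose start site is known apart from the deposited windows, 17 (32.1%) have a start site of another gene on the opposite strand within 1 kb, against 2119 of 14087 (15.0%) over all such promoters. Examples are Ercc8 with Ndufaf2 at 113 bp and Fancb with Mospd2 at 217 bp. Of the genes called higher in TD against ED, Rad1 and Xrcc1 belong to these 17.

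A wider list of 84 other repair genes, 81 with a promoter region, was set beside the members. In TD against ED 10 of them (12.3%) were called higher and 0 lower, beside 6.98% of all promoters higher, with a median of 0.22. In TT against ET 7 (8.64%) were higher and 0 lower, beside 6.1% of all promoters higher, with a median of 0.34. The share of members called was 11.1% and 16.7%. The lists were not tested against each other, nor matched for coverage with all promoters. With a mean of 5 fragments or more, 4 genes of the list remained in TD against ED and 3 were called higher (Ddb1, Mgmt and Pcna). In TT against ET 3 remained and 3 were called higher (Ddb1, Mgmt and Nhej1). Of all promoters so covered, 84.5% and 79.7% were called higher. The filter favours promoters that are high in TD or TT, so these counts lend no support. Ddb1, which carries the ultraviolet damage sensor DDB2, had 0.578 CPM in ED and 0.949 in ET, against 4.02 in TD and 3.55 in TT. Mgmt, which encodes the enzyme that takes methyl groups off guanine, had 0.995, 0.818, 4.05 and 4.47 CPM in the same order. TD and TT lay above ED and ET for both genes, with ratios in TD against ED of 6.94 (interval 1.32 to 401) and 4.07 (0.986 to 43.4). Pcna, the sliding clamp of replication, had 0.845, 0.658, 3.81 and 2.01 CPM, and Nhej1, an end joining factor also called XLF, had 1.81, 0.698, 2.48 and 4.07 CPM.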

How the data were processed

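CUT&Tag coverage of H3K27ac (4 samples) and H2BK120ac (12 samples) was read from tables of coverage signal per region, deposited as CPM by the authors with the replicates of a group merged into 1 column. The build was mm10, and featureCounts and DESeq2 are named without a role for the H3K27ac samples, both per the submitters' processing notes. The aligner, the coverage tool and the rule that set the regions are not stated in the sources at hand. Left unused were 16 columns (8 each in 2 tables) whose names match no sample. A region without coverage holds no number and was set to 0. In EtOH and 4HT no positive region value lay below that of 1 fragment, as where means run over covered bases only, so sparse regions read high. In H2BK120ac the lowest positive values lay below it, at 0.111 CPM in ED and ET, 0.103 in TD and 0.104 in TT. How values were averaged there is not known.

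A promoter value is the mean, weighted by width, over regions with a centre within 1 kb of the start site. Start sites came from the RefSeq promoter table (GRCm38.p6, 41 of the 55 genes), otherwise from the end of the gene span near a deposited window, or, where that end was more than 500 bp off, from the window itself (Rad21). The last step was added after the tables were seen. The comparisons were TD and ED, TT and ET, ET and ED, TT and TD, and 4HT and EtOH. A planned limma fit needs separate replicates and was not run. Depth is known per merged column, from the value of 1 fragment. Ratios are of CPM, and calls use a pseudocount of 1 CPM with no filter on low values. A column at 0 was given a limit of 3 fragments. Calls were tested on simulated data, with differences planted only in promoters with a mean of 5 fragments or more. That run does not show how differences at promoters with fewer fragments are called. Named members are those called in TD against ED or TT against ET at 5 fragments or more, the 5 highest and lowest of each mark, and members called in 4HT against EtOH. The other members named, with the partners and role examples, were picked with their values in view. Results of a few members are not reported here, though the counts over members include them. The members and all gene lists were chosen with earlier results of these data known. Alternatives were pseudocounts, a fragment minimum, single regions, other windows, centring, quantile normalization, other start sites and subsets of members. Python 3.11.15, pandas 2.3.3, SciPy 1.17.1 and matplotlib 3.10.9 were used.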

Additional observations from a re-analysis of the deposited data

Results flagged for a closer look

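Brca1 differed in direction between the comparisons that involve the groups coded T as second letter. Its promoter H2BK120ac was higher in ET than in ED, by 0.29 on the log2(CPM + 1) scale, and lower in TT than in TD, at -1.02. The difference between these effects was not tested, since each group is 1 merged column, and the 4 values rest on 1.14 to 4.83 fragments. The region is shared with the start site of Nbr1 on the opposite strand.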

How the results depend on the processing

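No paired analysis was possible because the replicates of each group were deposited as 1 merged column, and for the same reason no replicate could be left out. Over all comparisons and alternatives, 93 counts of members stayed within 1.5 times the reported count and 27 did not. A count of 0 that stayed 0 is among the 93, and reported counts of 0 include both directions in ET against ED and H3K27ac. The 93 thus do not measure how stable the calls were. The 27 are listed below, and a count that is not listed stayed within that range. Shares of all promoters are not given for the other pseudocounts, single regions and windows. The counts of members there show how the calls depend on the setting and are no result about the members. No called difference changed sign for Rad23b, Rad1, Msh6, Fanci, Xrcc1, Ercc5, Rad21, Brca1 or Ercc6. Changes of sign below 2-fold were not counted, and other members were not followed singly. With a pseudocount of 0.4, TD against ED had 15 members higher and 3 lower, TT against ET 2 lower, ET against ED 5 higher and 4 lower, TT against TD 2 higher and 5 lower, and H3K27ac 1 higher. With a pseudocount of 2, TD against ED and TT against ET had 3 higher each, and TT against TD had 0 in either direction. With a mean of 5 fragments or more, TD against ED and TT against ET had 3 higher each, and TT against TD had 0 in either direction. With the strongest region alone, ET against ED had 1 higher and TT against ET 1 lower, and with a window of 2 kb TT against ET had 1 lower. After quantile normalization, TD against ED had 2 higher and 3 lower, TT against ET 1 higher and 1 lower, ET against ED 4 lower, and TT against TD 0 in either direction; Rad23b and Xrcc1 in TD against ED and Rad1 in TT against ET were still called higher. Without members that have an opposite-strand start, an alternative chosen after seeing the data, TT against TD had 0 lower. The cause of these shifts was not tested. Depth limits all of this: most member promoters have a pile-up below 5 fragments in a group.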

Other observations

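Genes of translesion synthesis and direct reversal, which let replication pass a lesion or undo it without cutting, had the highest median among the repair lists not chosen by symbol. In TD against ED, 4 of 9 were called higher (Mgmt, Polh, Polk and Rev1) and 0 lower, beside 6.98% of all promoters higher, with a median of 0.98. In TT against ET it was 2 of 9 (Mgmt and Polk), beside 6.1%, with a median of 0.97. The list was singled out after its values were seen. Polk, a translesion polymerase gene, had 0.707 CPM in ED and 0.445 in ET, against 2.57 in TD and 2.05 in TT. Rev1, which encodes the scaffold of these polymerases, had 0.695, 0.502, 2.49 and 1.97 CPM, so that TD and TT lay above ED and ET for both genes.

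Of 12 targets of p53 with a promoter region, 12 were called higher in TD against ED, beside 6.98% of all promoters, with a median of 2.42. In TT against ET 11 were called higher, beside 6.1%, with a median of 2.13. That list was chosen with these results known, so its counts lend no support. Cdkn1a, the cell cycle inhibitor gene, had 0.796 CPM in ED and 0.963 in ET, against 15.2 in TD and 12.7 in TT. In H3K27ac it had 1.04 CPM in EtOH and 1.52 in 4HT, and 0 of the 12 were called there, beside 0.0347% of all promoters called higher.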
